A study of Homo sapiens with 4 samples.

Results

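The zinc finger genes of 7q11.21 examined here are 9 protein-coding genes spread over 1.36 Mb near the centromere of chromosome 7, from 64045443 to 65401135 on GRCh38. In map order they are ZNF727, ZNF679, ZNF736, ZNF680, ZNF107, ZNF138, ZNF273, ZNF117 and ZNF92. They were chosen from 60483 gene identifiers by name and position, and ZNF680 also for its value in 1 library, so its levels are given as a description with no test. Read counts came from poly(A)-selected RNA of H9 cells, the human embryonic stem cell line also listed as WA09. There were 2 libraries of control H9 cells and 2 libraries of H9 cells in which SLC35F2, a solute carrier gene, was knocked out (KO). The labels name no agent, clone, culture or method of knockout, and all 4 libraries come from the same line without any stated treatment. No label says that the 2 libraries of either group are separate cultures, so the p-values measure only how far these samples differ, and that spread may be technical.

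KRAB zinc finger genes form a large family of DNA-binding repressors in the human genome. Their proteins read DNA with a run of zinc fingers, and the KRAB domain at the other end recruits the corepressor TRIM28, which in turn brings the histone methyltransferase SETDB1 and heterochromatin proteins to the site. Many of these proteins bind transposable elements and silence them, a role known from pluripotent cells, and the genes arose by tandem duplication and often still lie side by side in clusters such as that of 7q11.21.

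ZNF680 was almost absent from KO 2, with 1 read against 338 in control 1, 297 in control 2 and 258 in KO 1. Its nearest expressed neighbour, ZNF107, stood at less than 50% of every other library in KO 2 but still gave 510 reads there. ZNF138, ZNF273 and ZNF92 stayed in KO 2 near or above their levels elsewhere, ZNF117 was somewhat lower, and ZNF727, ZNF679 and ZNF736 gave 0 or 1 read in each library. Of the 5 expressed members other than ZNF680, 0 passed the test of KO against control. ZNF680 was part of the fit across all genes, but as it was chosen for its value in KO 2 no call or p is given for it.

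The libraries held 27824693 to 37978705 reads assigned to genes. CPM stands for a gene's reads relative to the library total, here scaled by TMM factors. SLC35F2, the targeted gene, gave 41.1 and 27.1 CPM for the controls. It gave 12.1 and 9.65 CPM for the KO cells, so the libraries stood on the sides their labels give. In edgeR SLC35F2 was not called (log2 fold change -1.65, interval -2.46 to -0.85, adjusted p = 0.58). The absence of a call for a member therefore does not show that it was unchanged. All 10 markers of pluripotent stem cells were above 1 CPM in each library, summing to 8370 and 8528 CPM for the controls, 8968 for KO 1 and 6047 for KO 2. Of 6 fibroblast markers 2 were above 1 CPM in each library, and their sum was 247 CPM for control 1, 499.9 for control 2, 142 for KO 1 and 777 for KO 2. Summed neuroectoderm markers (4 genes) ranged from 16.1 to 27.6 CPM, trophoblast or amnion markers (5 genes, CGA at 0 reads) from 14.5 to 19.04 CPM, mesoderm markers (5 genes) from 0.79 to 7.23 CPM and endoderm markers (4 genes) from 0.175 to 2.65 CPM. KO 2 thus held the lowest pluripotency, mesoderm and endoderm sums of the 4 libraries. It also held the highest fibroblast, neuroectoderm and trophoblast or amnion sums. The part of these differences in the results below was not tested.

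The start regions of the members show how alike the genes are in these stretches. They are letters of the reference genome, the same for each library, and their part in the levels was not tested. The RefSeq table (GRCh38.p14) held a start region for all 9 genes, 2 of them for ZNF273. RefSeq starts differ from the Ensembl gene coordinates given further down. By those coordinates the windows of ZNF680, ZNF107, ZNF138 and ZNF92 reach a short way into the gene. The printed window of ZNF273 lies inside its gene. Below are the 250 bases before the RefSeq start of ZNF680 and of the expressed members whose start regions resemble it most. They are read 5′ to 3′ on the strand of the gene, with each CG dinucleotide, the site of DNA methylation, in capitals.
ZNF680 (chr7:64563072-64563321, minus strand): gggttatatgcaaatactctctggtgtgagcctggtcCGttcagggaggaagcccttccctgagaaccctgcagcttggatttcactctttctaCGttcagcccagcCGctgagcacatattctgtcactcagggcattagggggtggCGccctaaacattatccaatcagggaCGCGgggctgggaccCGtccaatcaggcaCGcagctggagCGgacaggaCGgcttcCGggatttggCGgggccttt
ZNF107 (chr7:64665883-64666132, plus strand): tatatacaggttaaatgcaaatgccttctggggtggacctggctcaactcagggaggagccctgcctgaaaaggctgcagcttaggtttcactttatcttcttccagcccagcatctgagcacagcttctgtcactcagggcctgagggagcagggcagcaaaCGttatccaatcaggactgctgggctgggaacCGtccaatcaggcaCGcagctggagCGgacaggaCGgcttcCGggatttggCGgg
ZNF138 (chr7:64794178-64794427, plus strand): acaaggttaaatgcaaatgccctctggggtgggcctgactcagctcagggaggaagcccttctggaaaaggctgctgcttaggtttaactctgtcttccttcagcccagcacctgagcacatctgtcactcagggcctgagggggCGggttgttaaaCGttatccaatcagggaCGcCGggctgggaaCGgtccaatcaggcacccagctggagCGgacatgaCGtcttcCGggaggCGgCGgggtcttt
ZNF273 (chr7:64903023-64903272, plus strand): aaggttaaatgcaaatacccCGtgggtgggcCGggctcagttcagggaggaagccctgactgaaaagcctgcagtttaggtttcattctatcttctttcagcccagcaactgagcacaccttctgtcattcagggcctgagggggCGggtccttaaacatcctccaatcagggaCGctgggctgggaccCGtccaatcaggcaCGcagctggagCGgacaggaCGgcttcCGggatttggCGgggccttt
ZNF92 (chr7:65373605-65373854, plus strand): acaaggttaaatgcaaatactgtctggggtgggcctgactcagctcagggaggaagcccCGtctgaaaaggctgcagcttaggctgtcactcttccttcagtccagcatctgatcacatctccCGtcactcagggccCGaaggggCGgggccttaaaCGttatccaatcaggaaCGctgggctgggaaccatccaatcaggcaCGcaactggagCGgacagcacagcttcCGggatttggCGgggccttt

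Over a global alignment, the ZNF680 region was identical to that of ZNF273 at 85.3% of positions, of ZNF92 at 80.8%, of ZNF138 at 80.3% and of ZNF107 at 77.9%. The longest run shared without a mismatch was 72 bases with ZNF273 and 56 bases with ZNF107, against 25 with ZNF92 and 18 with ZNF138. The region of ZNF680 held 12 CG dinucleotides, the one of ZNF107 held 7, and those of ZNF138, ZNF273 and ZNF92 held 10 each, where the median over 35116 start regions in the table was 11. ZNF727 and ZNF736, with 1 and 0 reads over all libraries, had 6 each (identity to ZNF680 54.9% and 56.1%), and ZNF679 had 0 (46.0%). The region given for ZNF117 held 1, and the other start of ZNF273 held 21. Each of the 5 printed regions has 2 matches to CCAAT on either strand, which 32.01% of all start regions match at least at 1 place. GGGCGG on either strand matched at 1 place in ZNF138, ZNF273 and ZNF92 and not in ZNF680 or ZNF107 (42.6% of all start regions), and neither motif contains the other. TATAAA was in none of the 5 (10.7% of all). These matches describe the letters in these windows only.

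ZNF680 (ENSG00000173041.10, chromosome 7, 64519884 to 64563106, minus strand) gave 8.96 CPM for control 1, 8.36 for control 2, 9.38 for KO 1 and 0.0292 for KO 2. The controls and KO 1 lay close together and KO 2 lay near 0, so the KO group overlapped the controls. The control mean was 8.66 ± 0.423 CPM (SD, n = 2). The KO mean was 4.71 ± 6.61 CPM (SD, n = 2), a value that neither KO library is near. As CPM without scaling factors, KO 2 had 0.0271 with an exact Clopper-Pearson 95% interval from 0.000685 to 0.151, and KO 1 had 9.27 with an interval from 8.18 to 10.5. KO 2 stood at 0.33% of the other 3 libraries combined, with an exact 95% interval from 0.00835% to 1.84%. KO 1 stood at 108% of the 2 controls, with an interval from 93.3% to 125%, which includes no difference. These intervals cover counting error only. With RLE, upper-quartile or no scaling factors KO 2 stood between 0.304% and 0.351% of the lowest other library.

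**Figure D1:**
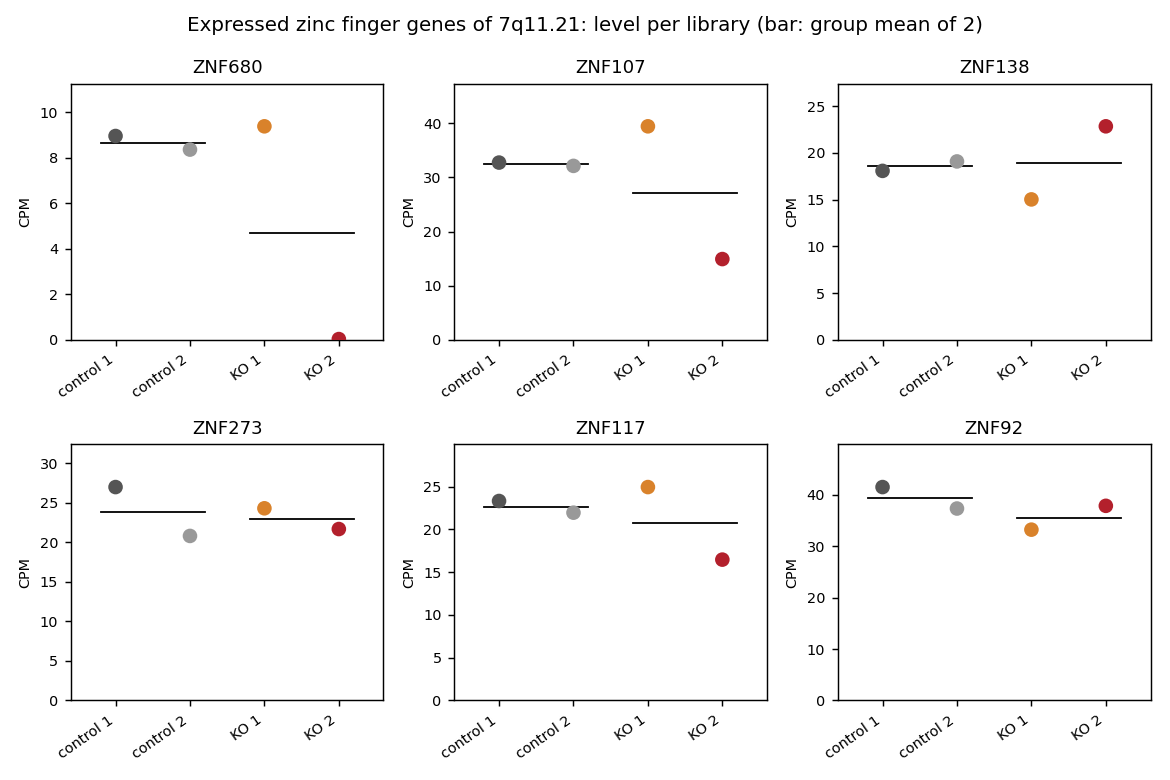
Level of each expressed cluster member in CPM (vertical axis, from 0, a scale of its own in each panel) in the 4 libraries, 1 point per library, with a bar at the mean of the 2 libraries of each group. ZNF680 lies at 0.0292 CPM in KO 2 and ZNF107 at 14.9 CPM, while the other 4 genes lie between 16.5 and 37.9 CPM there.

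Of 5669 distinct windows of 100 bases in the annotated transcripts of ZNF680, 0 occurred on either strand in a transcript of another gene, and 0 of 7435 did for ZNF107, 0 of 3317 for ZNF138 and 0 of 3702 for ZNF92. An exact match over 100 bases is a strict demand. The longest run that the start region of ZNF680 shared with that of another member was 72 bases. These counts therefore do not show how alike the transcripts are otherwise. For ZNF273 5.5% of windows were shared, with an antisense transcript, and for ZNF117 1.63%, with ERV3-1. The sources used here give neither a read length nor whether the counting used strand, so reads of ZNF117 and ERV3-1, which overlap on the same strand, and of genes with an antisense partner may not be fully separated.

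ZNF107 (ENSG00000196247.10, 64666083 to 64711582, plus strand) starts 103 kb beyond ZNF680 and is transcribed away from it. Its level was 32.8 CPM for control 1, 32.1 for control 2, 39.5 for KO 1 and 14.9 for KO 2. KO 1 was thus the highest and KO 2 the lowest of the 4 libraries. The controls averaged 32.4 ± 0.432 CPM and the KO libraries 27.2 ± 17.4 CPM (SD, n = 2 each). On the log2 scale the fitted difference was -0.26 ± 0.43 (SE), its 95% interval ran from -1.25 to 0.73, and edgeR's quasi-likelihood test gave it an adjusted p of 0.997. KO 2 stood at 43.4% of the other 3 libraries together, with a counting interval from 39.5% to 47.6%. The 2 KO libraries lay apart, and the fold change depends on which is kept: it was -1.11 without KO 1 (edgeR adjusted p = 0.0803) and 0.28 without KO 2 (0.9997, range over 13 alternatives 0.0803 to 0.9999). Each of these fits lets the spread of the controls stand for that of the remaining KO library.

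ZNF138 (ENSG00000197008.8, 64794388 to 64833681, plus strand) had the opposite order within the KO group. Its level was 18.1 and 19.1 CPM for the controls, 15.02 for KO 1 and 22.8 for KO 2, so KO 1 was the lowest and KO 2 the highest library. The log2 fold change was 0.03 ± 0.35 (SE; interval -0.76 to 0.82; edgeR adjusted p = 0.997), and its sign turned with upper-quartile factors (-0.055) and with library size only (-0.107). Over all genes tested the median was 0.0289 with TMM factors and -0.0969 with library size only.

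ZNF273 (ENSG00000198039.10, 64870172 to 64930966, plus strand), 1 of whose start regions is the closest to that of ZNF680, gave 27.0 and 20.8 CPM for the controls, 24.3 for KO 1 and 21.7 for KO 2. Both KO values lay between those of the controls. The log2 fold change was -0.06 ± 0.31 (SE), with a 95% interval from -0.77 to 0.66.

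ZNF117 (ENSG00000152926.13, 64971776 to 65006684, minus strand) gave 23.3 and 21.95 CPM for the controls, 24.9 for KO 1 and 16.5 for KO 2. KO 2 was the lowest library, at 70.7% of the other 3 together (counting interval 64.4% to 77.6%), and KO 1 was the highest. The overlapping ERV3-1, an endogenous retrovirus envelope gene on the same strand, was also lowest in KO 2, at 8.77, 9.60, 8.84 and 6.38 CPM for control 1, control 2, KO 1 and KO 2. The log2 fold change of ZNF117 was -0.13 ± 0.34 (SE; interval -0.90 to 0.63), and it turned to 0.142 without KO 2.

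ZNF92 (ENSG00000146757.12, 65373799 to 65401135, plus strand) lies apart from the rest, 367 kb beyond ZNF117. It gave 41.5 and 37.4 CPM for the controls, 33.2 for KO 1 and 37.9 for KO 2, so KO 2 lay between the controls. The log2 fold change was -0.15 ± 0.28 (SE), with an interval from -0.79 to 0.49. ZNF273, ZNF117 and ZNF92 each had an edgeR adjusted p of 0.997.

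ZNF727 (64045443 to 64078549) and ZNF679 (64228474 to 64266931) gave 1 read each, both in KO 1, and ZNF736 (64307459 to 64354860) gave 0 reads in all 4 libraries. A count of 0 allows up to 0.079 to 0.108 CPM, without scaling factors, in these libraries, taking 3 reads as the limit. These genes lie on the centromeric side of ZNF680 in a row, and ZNF736 is the nearest of them at a gap of 165 kb. They did not pass the filter on low counts, so their levels in KO and control could not be compared at this depth. Which annotation release was counted, and whether by strand, is unknown here, and the part of this in the low counts was not tested.

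Per kilobase of merged exon (CPM divided by length, as RPKM), the members fell into an order that held broadly across libraries. ZNF92 was highest at 9.46 to 11.8 RPKM over the 4 libraries, above ZNF138 at 5.27 to 8.01. ZNF107, at 4.57, 4.49 and 5.51 in control 1, control 2 and KO 1 and 2.08 in KO 2, overlapped ZNF138 at its upper end and ZNF273 (2.40 to 3.12) through KO 2. ZNF117 (1.54 to 2.33) came next, just under the lowest value of ZNF273. ZNF680 had 1.60, 1.497 and 1.68 RPKM in the controls and KO 1, which overlapped the lowest value of ZNF117, and 0.00524 RPKM in KO 2. ZNF680 was therefore the least expressed of the 6 also in the 3 libraries in which it was present.

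Read against all genes, the members other than ZNF680 did not stand out in KO against control. Of 19027 genes tested, 5 (0.0263%) were called at an adjusted p of 0.05 in edgeR, 4 lower (0.021%) and 1 higher (0.00526%). Of the 5 tested members other than ZNF680, 0 were called, 0 had an unadjusted p under 0.05, and DESeq2 and limma-voom called 0 as well. In 0 of these 5 did the groups stand apart, against 32.2% of all genes tested. Groups stand apart where both KO libraries lie below or both above the controls. The median log2 fold change of the 6 expressed members, with ZNF680 included, was -0.14, beside 0.0289 for all genes tested.

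Within the KO group KO 2 was the lowest of the 4 libraries for ZNF680, ZNF107 and ZNF117, 3 of 6 (2 of 5 without ZNF680, which was chosen for it), beside 32.3% of all genes tested. The shares of genes lowest in control 1, control 2 and KO 1 were 16.4%, 26.5% and 24.8%. Of the 5 members other than ZNF680, only ZNF107 had at most 50% of the lowest other library left in KO 2, beside 8.29% of all genes. ZNF680 met this threshold too, but by choice. At most 5% was left for ZNF680 alone, beside 110 genes or 0.578% of all tested. The same threshold was met by 46 genes (0.242%) in KO 1, 6 (0.0315%) in control 1 and 3 (0.0158%) in control 2. These shares are the background from which ZNF680 was picked, and no test is drawn from them.

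**Figure D2:**
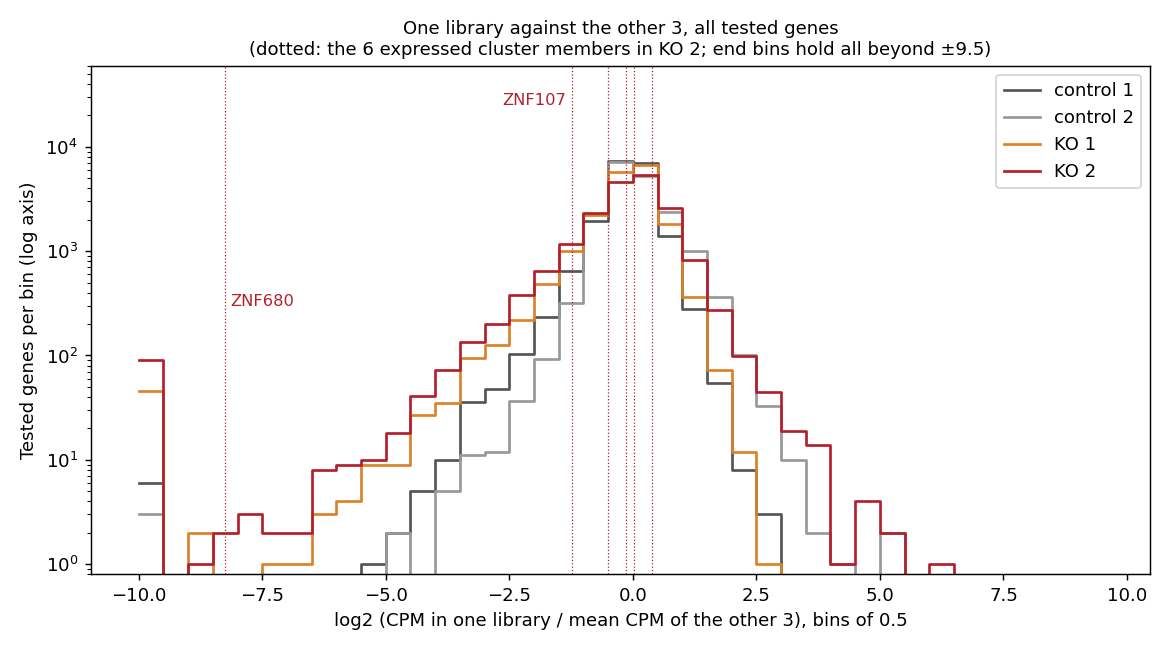
Number of tested genes (vertical log axis) by the log2 ratio of CPM in 1 library to the mean CPM of the other 3 (horizontal axis, bins of 0.5, 1 line per library), with dotted lines at the values of the 6 expressed cluster members in KO 2. ZNF680 lies at -8.25, where few genes of any library lie, ZNF107 at -1.22, and the other 4 members lie between -0.51 and 0.39. The end bin on the left holds all genes at -9.5 or below, among them those with 0 reads in the library.

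Around the cluster, within 1 Mb on either side, 22 genes were tested, 12 of them protein coding. Of these 22, 13 were lowest in KO 2, beside 32.3% of all genes tested, and ZNF680 is 1 of the 13 by choice. Without it the count was 12 of 21. These were 2 of 5 members, 2 of 6 other protein-coding genes and 8 of 10 pseudogenes and non-coding genes. The 32.3% covers all gene types, and no such share was taken for pseudogenes and non-coding genes alone. Some of the genes around the cluster also overlap each other. Where only genes averaging 1 CPM or more were kept, a choice made after the data were seen, 10 of 17 were lowest in KO 2, or 9 of 16 without ZNF680, beside 29.2% of all such genes. The processed pseudogene BNIP3P11, which lies inside ZNF107 on the opposite strand, had 23, 11 and 19 reads in control 1, control 2 and KO 1 and 2 reads in KO 2. AC092685.1, a processed pseudogene just before ZNF92, had 1.19, 1.10 and 1.78 CPM against 0.292 CPM in KO 2. The chaperonin pseudogene CCT6P1, beyond ZNF92, had 13.2, 19.3 and 15.2 CPM against 5.50 CPM. Reads outside single genes were 14.4% of counted alignments in KO 2 and 16.7% to 20.3% in the other libraries, and the part of this share in the pseudogene levels was not tested.

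The protein-coding genes past the telomeric side of the cluster were all present in KO 2. VKORC1L1, a paralog of the vitamin K epoxide reductase gene, is the first of them and had 60.6, 43.6 and 69.8 CPM in control 1, control 2 and KO 1 and 50.04 CPM in KO 2. GUSB, the gene of the lysosomal enzyme beta-glucuronidase, had 44.1, 40.8 and 47.7 CPM against 64.0 CPM and was highest in KO 2. ASL, the gene of argininosuccinate lyase in the urea cycle, had 26.4, 23.7, 31.2 and 29.8 CPM in the same order. CRCP was lowest in KO 2, at 24.6 CPM against 32.7 to 35.7 CPM. None of the 6 tested protein-coding genes outside the members was called, and their edgeR adjusted p was 0.997 each. On the centromeric side the nearest tested gene was the pseudogene AC091685.2, with 11, 0, 5 and 12 reads, and no gene between it and ZNF680 had enough reads to be tested.

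**Figure D3:**
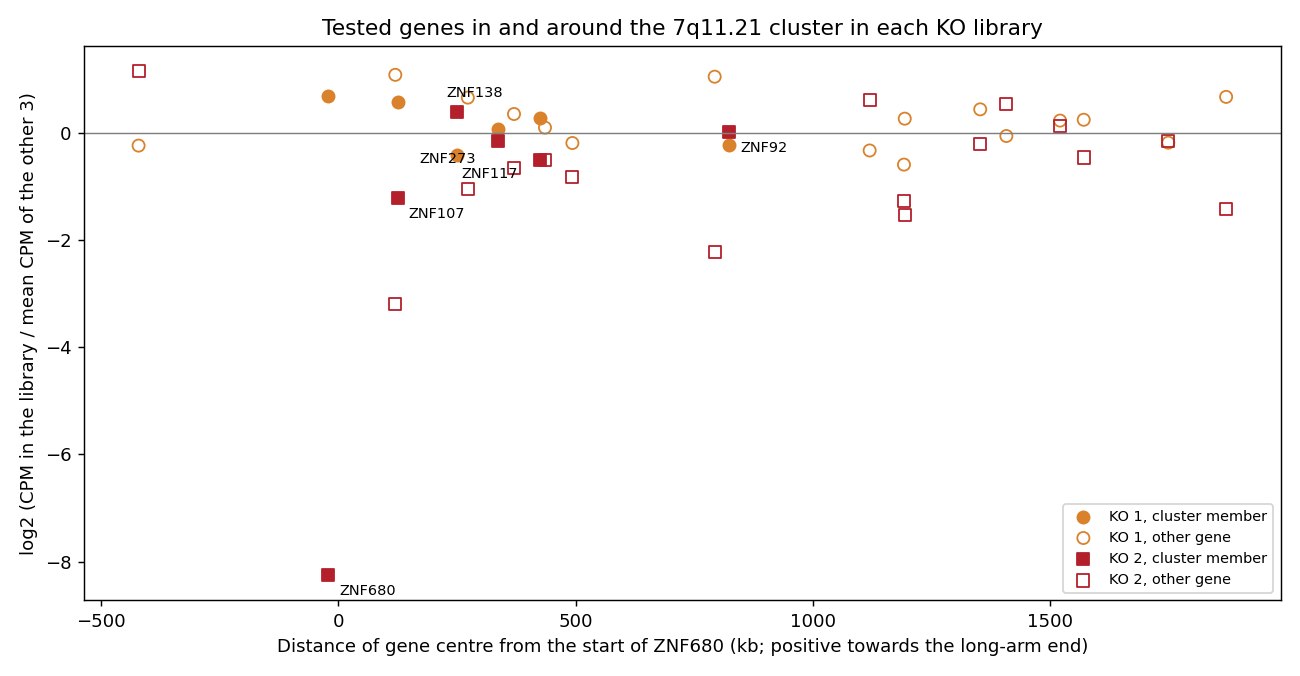
Log2 ratio of CPM in 1 KO library to the mean CPM of the other 3 libraries (vertical axis) against the distance of the gene's centre from the start of ZNF680 in kb (horizontal axis) for the 22 tested genes in and around the cluster, circles for KO 1 and squares for KO 2, filled for cluster members. In KO 2 ZNF680 lies at -8.25, ZNF107 at -1.22 and the pseudogene inside it at -3.20, while ZNF138 and ZNF92 lie at 0.39 and 0.02.

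The corepressor machinery through which KRAB proteins act was present in all 4 libraries. From a list of 25 genes for corepressors, heterochromatin and DNA methylation, which also held the transposase-derived gene PGBD5, 24 were tested and 0 were called, while 1 (EHMT2) had an unadjusted p under 0.05. In both KO libraries 7 of the 24 were higher and 1 was lower than in both controls (8 of 24 in all, beside 32.2% of all genes), where 3012 of all 19027 genes were higher (15.8%) and 3107 lower (16.33%). Over the 24 genes the median log2 fold change was 0.13. TRIM28, the corepressor itself, gave 921 and 641 CPM for the controls against 1102 for KO 1 and 1072 for KO 2 (log2 fold change 0.48 ± 0.27, interval -0.14 to 1.09). SETDB1, the histone methyltransferase, gave 50.7 and 52.7 CPM for the controls, 64.6 for KO 1 and 74.3 for KO 2. The DNA methyltransferase DNMT3B gave 1743 and 1302 CPM for the controls, 1550 for KO 1 and 662 for KO 2. Its paralog DNMT3A gave 164 and 189 CPM for the controls, 195 for KO 1 and 91.02 for KO 2. Both were lowest in KO 2, as were 8 of the 24 genes of the list (33.3%), a share near the 32.3% of all genes tested. Over all 4 libraries the log2 fold change of DNMT3B was -0.46 (interval -1.36 to 0.43, edgeR adjusted p = 0.997). Without KO 1 it was -1.19, in a fit that leaves 1 KO library. The part of these levels in that of ZNF680 was not tested. SETDB1 and DNMT3A were chosen after their values were seen, DNMT3B and TRIM28 as the most abundant of the list.

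Other groups of zinc finger genes also held single members that were near 0 in KO 2. In the cluster of 4p16.3, ZNF732 had 286, 455 and 245 reads in control 1, control 2 and KO 1 and 4 reads in KO 2. ZNF595 of the same cluster, with ZNF718 between it and ZNF732, was low in both KO libraries. It had 158 and 117 reads in control and 2 and 1 in KO (edgeR adjusted p = 0.0588). The other 3 genes of that cluster, ZNF141, ZNF718 and ZNF721, kept 83.5% to 133% of their lowest other library in KO 2. Of 225 tested zinc finger genes of chromosome 19, 1 met the 5% threshold in KO 2 and 7 had at most 50% of the lowest other library. Of 21 further zinc finger genes of chromosome 7 the counts were 0 and 1. KO 2 was also set as a percentage of the mean of the other 3 libraries. Its median was 80.3 over the 6 cluster members and 69.3 over the 5 genes of 4p16.3. It was 101 over chromosome 19 and 119 over the rest of chromosome 7. The 80.3 includes ZNF680, which was chosen for its value in KO 2. Among the other members the middle value was that of ZNF273, 90.2. In KO 1 the medians were 113, 91.8, 85.7 and 91.0. The most abundant genes of the chromosome 19 list were ZNF146, at 217 and 261 CPM for the controls, 176 for KO 1 and 236 for KO 2, and ZNF121, at 91.9, 130.1, 116 and 47.8 CPM in that order. Those of the chromosome 7 list were ZNF398, at 115, 153, 92.5 and 37.3 CPM, and ZNF3, at 56.7, 81.8, 64.01 and 50.9 CPM. None of these 4 was called (edgeR adjusted p = 0.997 each), and ZNF121, ZNF398 and ZNF3 were lowest in KO 2. No difference between these lists was tested, so nothing is called particular to 7q11.21.

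**Figure D4:**
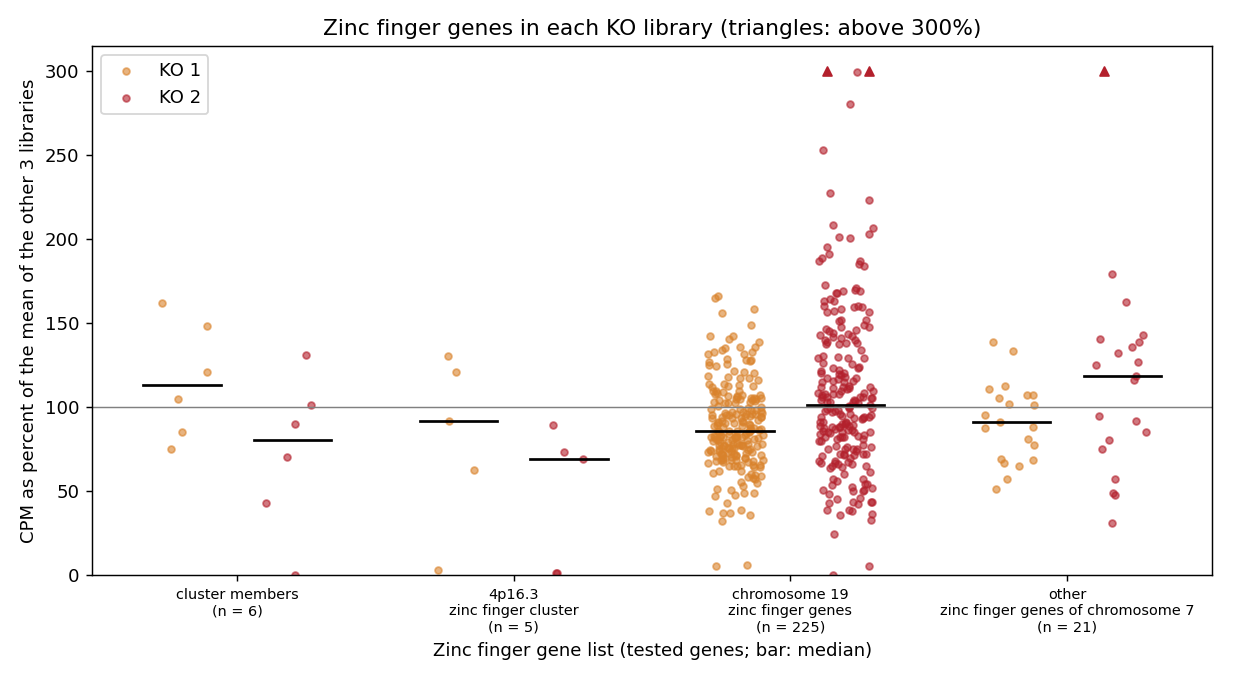
CPM in KO 1 and in KO 2 as a percentage of the mean of the other 3 libraries (vertical axis, from 0) for the tested genes of 4 zinc finger lists (horizontal axis), 1 point per gene, with a bar at the median and triangles for values above 300%, of which KO 2 has 2 on chromosome 19 and 1 on chromosome 7. The cluster members spread from 0.329% to 131% in KO 2 and from 75.1% to 162% in KO 1.

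Of the 110 genes that met the 5% threshold in KO 2, 59 were protein coding, 30 had a mean of at least 1 CPM, 7 lay on chromosome 7 and 6 had a symbol of the zinc finger series. Among all 19027 genes tested, 15057 had a mean of at least 1 CPM. The other shares over all genes tested were not taken, so these counts only describe the list. By its control mean ZNF680 was at rank 8 of the 110. The most abundant one on chromosome 7 was CHCHD2, which lies on the other arm (56101569 to 56106576) and had 210, 149 and 201 CPM against 0.0585 CPM in KO 2. CHCHD2 was chosen after its values were seen.

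The 5 genes with the profile most like that of ZNF680 over the 4 libraries were C17orf51, ZNF732, TRIM4, CEBPZOS and RMST, in this order. Likeness was the root-mean-square distance between centred log2(CPM + 0.5) profiles, among genes averaging 2 CPM or more, and ran from 0.241 for C17orf51 to 0.333 for RMST. C17orf51 had 10.4, 8.75 and 14.1 CPM in control 1, control 2 and KO 1 and 0 reads in KO 2. TRIM4, a gene of the tripartite motif family on chromosome 7 (99876958 to 99919600), had 6.33, 8.89 and 5.75 CPM against 1 read in KO 2. CEBPZOS and the long non-coding RNA RMST kept 62 and 70 reads in KO 2. None of the 5 lies near the cluster, and among its own members ZNF107 came nearest at rank 436 of 13491 with a distance of 1.28, followed by ZNF117 at rank 2073 (1.58). Over only 4 libraries such a ranking describes which genes were low in KO 2 and no more, and with a pseudocount of 2 in place of 0.5 none of the 5 was among the nearest.

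**Figure D5:**
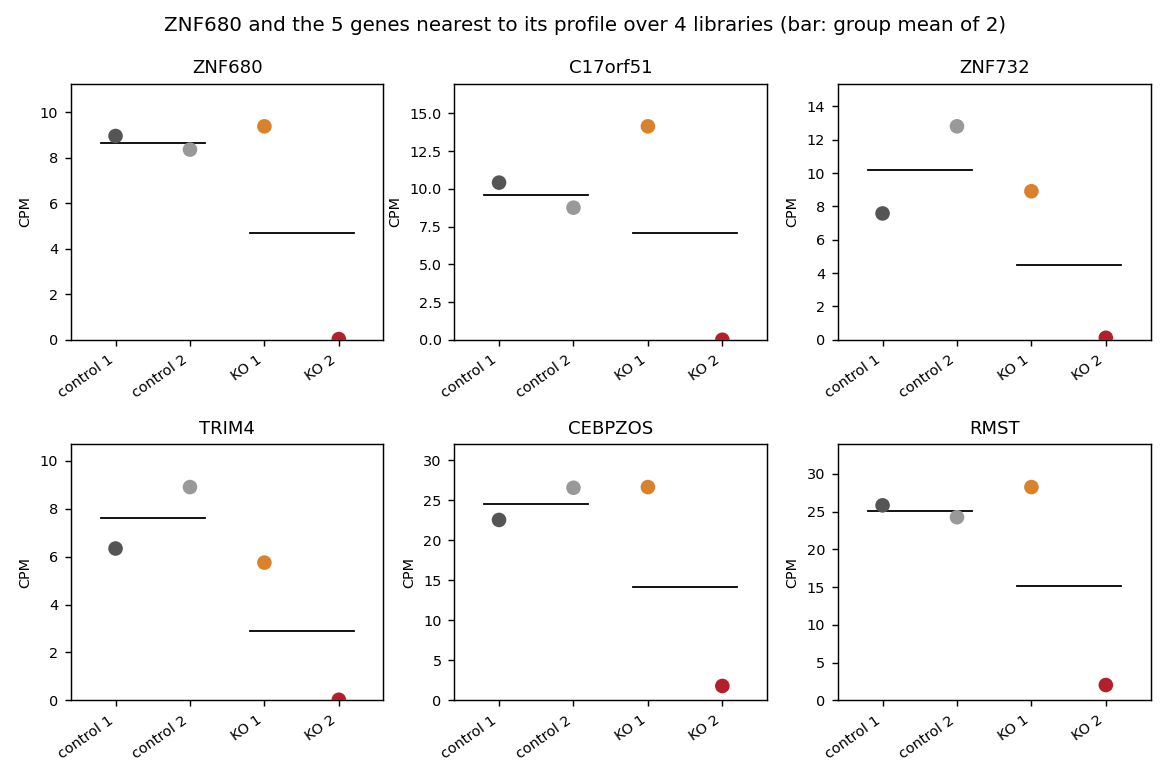
Level in CPM (vertical axis, from 0, a scale of its own in each panel) of ZNF680 and of the 5 genes nearest to its profile in the 4 libraries, 1 point per library, with a bar at the mean of the 2 libraries of each group. All 6 genes lie at 2.05 CPM or below in KO 2 and at 5.75 CPM or above in the other libraries.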

How the data were processed

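Poly(A)-selected RNA of 2 control and 2 KO libraries of H9 cells was analysed, grouped by their titles. The authors deposited raw counts of reads for each Ensembl gene. Per the submitters' processing notes HTSeq 0.11.0, STAR 2.6.0a, cutadapt 1.8.1 and FastQC 0.11.7 were used with GRCh38. The sources used here name no annotation release and no strand setting. The labels' protocols mention quantile normalisation, which these counts do not carry.

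Rows that name no gene (14.4% to 20.3% of counted alignments) were left out. Identifiers were matched without version to GENCODE on GRCh38 (56753, 93.8%). Genes passing edgeR's filterByExpr (minimum count 10) were tested, 19027 in all, with TMM factors and edgeR 4.0.16 (quasi-likelihood F test, robust, two-sided, Benjamini-Hochberg, threshold 0.05; R 4.3.3). Standard errors are the log2 fold change over the square root of F. The test was tested on simulated counts. Replicates differed far beyond counting noise (chi-square per degree of freedom 54.6 and 124), so none is a copy. Alternatives were RLE, upper-quartile and no factors, DESeq2 1.42.0, limma-voom (limma 3.58.1), edgeR's legacy fit, other filters, the replicate number as a term and each library left out.

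The members and lists were chosen with earlier results of these data known. Named are the members, SLC35F2, the nearest tested genes, the 5 genes most like ZNF680, and from each list the called or else the 2 most abundant genes. Picked after seeing their values were also the pseudogenes, ERV3-1, EHMT2, GUSB, ASL, CRCP, ZNF595, ZNF718 and the others marked so in the text.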

Additional observations from a re-analysis of the deposited data

How the results depend on the processing

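Of the 5 expressed members other than ZNF680, 0 were called under any of 13 alternatives, and no call is reported for ZNF680, which was chosen for its value in KO 2. Over all genes 5 were called in the reported fit, 0 with upper-quartile factors, library size only, limma-voom and a mean CPM of at least 1, 1 with edgeR's legacy fit, 8 with no filter and 60 with DESeq2. At an unadjusted p under 0.05 these fits of 0 calls placed 801, 787, 692 and 523 genes. With the replicate block 76 genes were called and no member. The numbers are shared only by label, and the deviations of same-numbered libraries had a correlation of 0.381 over genes. Leaving out each library in turn gave 3 to 1096 calls, the highest without KO 1, and 188 without KO 2. For the corepressor list 0 were called in every fit of all 4 libraries, and without KO 1 the log2 fold change of DNMT3B was -1.19.

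Signs turned for values that were not called. ZNF138 turned with upper-quartile factors (-0.0552), library size only (-0.107), a mean CPM of at least 1 (-0.0133) and the replicate block (-0.00102), and without control 1 (-0.000152) and without KO 2 (-0.305). ZNF273 turned without control 1 (0.153) and without KO 2 (0.0256), ZNF107 (0.284) and ZNF117 (0.142) without KO 2. ZNF92 kept its sign in all 13. Leaving out each library in turn, the log2 fold changes ran from -1.11 to 0.284 for ZNF107, -0.305 to 0.311 for ZNF138, -0.232 to 0.153 for ZNF273 and -0.447 to 0.142 for ZNF117. The number of genes at 5% or less in KO 2 was 110, and 30 where the mean had to reach 1 CPM. Of the 5 genes most like ZNF680, 0 were among the 5 with a pseudocount of 2. With 2 libraries a group, the 95% intervals of the members bound what could be detected.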
